A study of Mus musculus with 12 samples.

Results

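The genes examined here encode the mitochondrial enzymes that turn pyruvate and fatty acids into reducing power: pyruvate entry, the citrate cycle and beta-oxidation. They were taken from a list of 35 genes (6 for pyruvate entry, 13 for the citrate cycle and 16 for beta-oxidation). The list was chosen by function, with earlier results of these data known. Of the 35 genes 33 had a probe set named with that symbol alone, of 22180 genes measured in all. The remaining pair, the pyruvate carrier subunit Mpc2 and the muscle carnitine palmitoyltransferase Cpt1b, had no such probe set in the platform annotation used here and are not analysed. RNA came from primary aortic smooth muscle cells of C57BL/6J mice, an inbred strain, used in passage 3 or 4 and kept in serum-containing DMEM (10% FCS) with glucose at 4.5 g/l (25 mM, 6 arrays) or 0.3 g/l (1.7 mM, 6 arrays). The series text gives 14 days of culture and the sample labels 1 week. The arrays of each group are numbered 1 to 6, and nothing in the labels says whether they were separate cultures or animals, so the p-values rest on array-to-array spread that could be technical only. No genetic change or other agent was named for either group, and no osmotic control is among the arrays analysed. The comparison asks how the glucose supply alters expression in these cells.

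Pyruvate made by glycolysis crosses the inner mitochondrial membrane through a carrier and is either oxidised to acetyl-CoA by the pyruvate dehydrogenase complex or carboxylated to oxaloacetate. Citrate synthase joins acetyl-CoA to oxaloacetate, and the cycle that follows yields NADH, FADH2 and precursors for synthesis. Long-chain fatty acids enter as carnitine esters and are shortened in repeated rounds of dehydrogenation, hydration, dehydrogenation and thiolysis, which supply the same acetyl-CoA. Cultured smooth muscle cells are known to make much of their ATP by glycolysis, with glucose and fatty acids both available as mitochondrial fuels.

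All values are log2 RMA values (background-corrected, quantile-normalized and summarised by probe set), in which 1 unit is a doubling. Array medians over all probe sets lay between 4.92 and 5.05. The cells carried smooth muscle markers: 6 of 8 rose in 4.5 g/l, and the mean of the list lay between 10.59 and 10.79 in the 4.5 g/l arrays. In 0.3 g/l it was 10.22 for replicate 4 and 9.07 to 9.29 for the others. Replicate 4 of the 0.3 g/l group stood apart from its group. Its highest correlation with an array of its own group was 0.987 over 22180 genes, against 0.992 with a 4.5 g/l array, and its value of Txnip, a strongly glucose-induced gene, was 10.85, where the 4.5 g/l arrays had 10.90 to 11.22 and the other 0.3 g/l arrays 6.90 to 7.35. Its label may therefore be wrong, which these values cannot settle, and every difference over 12 arrays counts it as 0.3 g/l. Endothelial markers were present as well: 10 of 10 were measured, and none lay among the dimmest 25% of genes. Of these, 1 fell, Emcn (log2 difference -0.43, limma adjusted p = 0.0236), and none rose. Cdh5, the endothelial cadherin, had a mean of 10.51 in 4.5 g/l and 11.10 in 0.3 g/l and did not pass (limma adjusted p = 0.101). Within 4.5 g/l the mean of these 10 markers was 8.07 to 8.19 for replicates 1, 2 and 3 but 7.46 to 7.48 for replicates 4, 5 and 6. Within 0.3 g/l it was 7.64 for replicate 4 and 8.12 to 8.17 for the others. In bulk RNA, fewer cells of a type and less RNA per cell cannot be told apart.

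The mitochondrial fuel genes differed by small amounts between the glucose levels, in the median about as much as all genes did. With all 12 arrays 3 of 33 passed (9.09%): the enoyl-CoA isomerase Eci1 fell, and the thiolase Acaa2 and the trifunctional protein subunit Hadha rose in 4.5 g/l. All 3 belong to beta-oxidation, and no pyruvate entry or citrate cycle gene passed in limma, although 3 of those 18 had an unadjusted p under 0.05. Over all genes 15.5% passed the same test (limma, Benjamini-Hochberg adjusted p under 0.05); 7.01% rose and 8.52% fell. The log2 differences of the 33 genes ran from -0.31 to 0.28, with a median absolute difference of 0.11, the same to that precision as the 0.11 over all genes. The median standard error was 0.07 for the 33 genes and 0.09 over all genes. Without 0.3 g/l replicate 4, 8 of 33 passed (24.2%) where 23.9% of all genes did, with 4 of the 33 up (10.3% of all genes) and 4 down (13.6% of all genes). Within replicates 1 to 3 alone 2 of 33 passed where 13.1% of all genes did, Acaa2 up (5.92% of all genes) and Eci1 down (7.16%). Within replicates 4 to 6 without 0.3 g/l replicate 4 also 2 passed where 15.5% of all genes did, none up (6.55%) and Eci1 and Pcx down (8.94%).

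**Figure D1:**
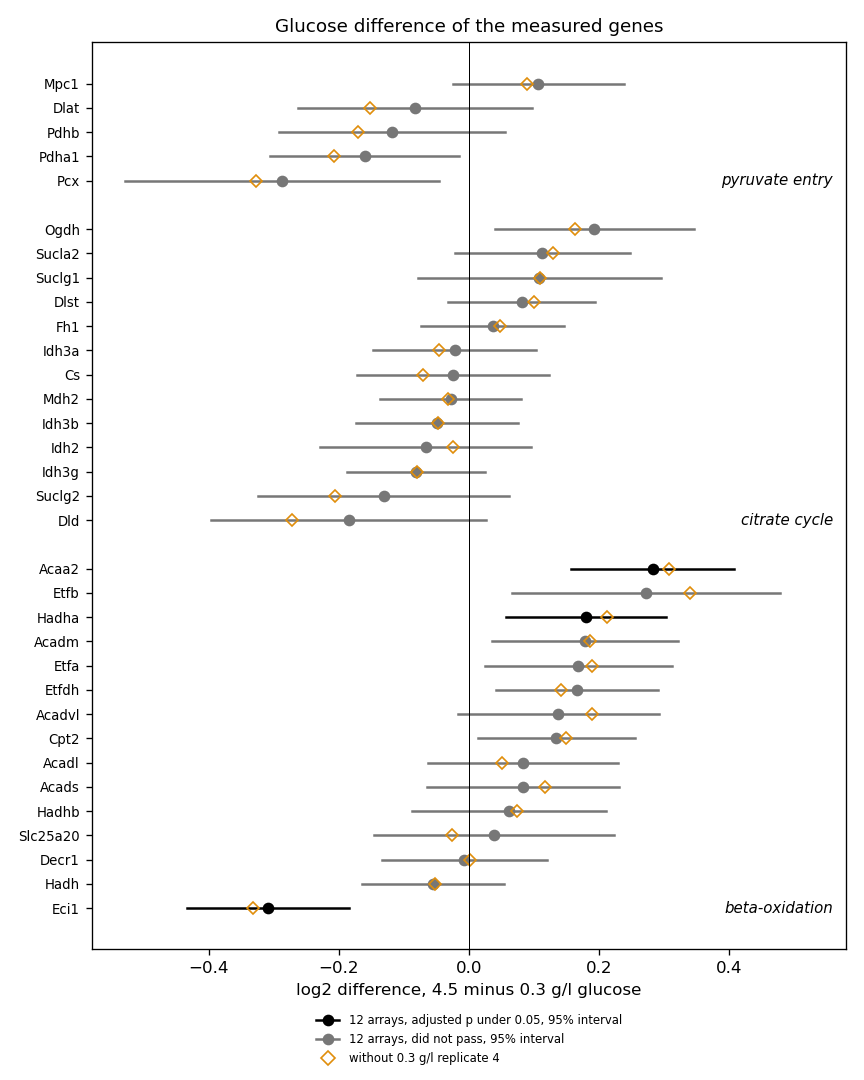
Log2 difference between 4.5 and 0.3 g/l glucose for the 33 measured genes (points, x axis) with 95% intervals, ordered by size within each role; black marks the 3 genes past an adjusted p of 0.05 and open diamonds the difference without 0.3 g/l replicate 4. Most beta-oxidation genes lie to the right of 0 with a median of 0.13, while pyruvate entry and citrate cycle genes lie on both sides.

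Within beta-oxidation the transport step into mitochondria showed small differences. Cpt2, the inner-membrane carnitine palmitoyltransferase, measured 8.46, 8.46, 8.47, 8.62, 8.51 and 8.47 in 4.5 g/l and 8.45, 8.26, 8.35, 8.44, 8.32 and 8.37 in 0.3 g/l. Each 4.5 g/l array was higher than each 0.3 g/l array, by a narrow margin. The difference was 0.13 ± 0.06 (log2, SE) and did not pass (limma adjusted p = 0.133; exact permutation test adjusted p = 0.0338). Groups failed to overlap in 3 of the 33 genes (Cpt2, Acaa2 and Eci1), where 6.40% of all genes did so (3.49% higher and 2.90% lower in 4.5 g/l). Slc25a20, the carnitine-acylcarnitine carrier, differed by 0.04 (95% interval -0.15 to 0.22). Its value in 0.3 g/l replicate 4 was 8.03, the lowest of the 12 arrays, and the others lay between 8.24 and 8.52.

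The 4 listed acyl-CoA dehydrogenases, which carry out the opening dehydrogenation for straight-chain fatty acids of different lengths, had positive differences and none passed with 12 arrays. Acadvl, for very long chains, measured 8.17, 8.06, 8.10, 8.02, 7.99 and 8.01 in 4.5 g/l against 7.75, 7.81, 7.92, 8.18, 7.90 and 7.96 in 0.3 g/l. Only 0.3 g/l replicate 4 reached into the 4.5 g/l range. The difference was 0.14 ± 0.07 (SE, limma adjusted p = 0.244) with 12 arrays, and 0.19 without that array (limma adjusted p = 0.0289). Acadm, for medium chains, measured 9.18, 9.28, 9.21, 9.48, 9.37 and 9.41 in 4.5 g/l against 9.23, 9.00, 9.15, 9.18, 9.13 and 9.18 in 0.3 g/l. Replicates 4 to 6 of the 4.5 g/l group lay above all other arrays, and the difference of 0.18 ± 0.07 (SE) did not pass (limma adjusted p = 0.0882). The long-chain and short-chain enzymes Acadl and Acads differed by 0.08 each (95% intervals -0.06 to 0.23 for both).

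Electrons from these dehydrogenases pass through the electron transfer flavoprotein, built from Etfa and Etfb, to its ubiquinone oxidoreductase Etfdh. Etfb measured 8.40, 8.46, 8.52, 8.64, 8.51 and 8.68 in 4.5 g/l against 7.95, 8.17, 8.30, 8.60, 8.20 and 8.36 in 0.3 g/l. The highest 0.3 g/l value belonged to replicate 4, and without it the groups did not overlap. The difference was 0.27 ± 0.10 (SE, limma adjusted p = 0.0714) with 12 arrays, and 0.34 (limma adjusted p = 0.00702) without replicate 4. Etfa differed by 0.17 ± 0.07 (SE, limma adjusted p = 0.113) and Etfdh by 0.17 ± 0.06 (SE, limma adjusted p = 0.0689). All 3 genes of this electron path were thus higher in the 4.5 g/l mean, and none passed with all arrays.

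Hadha, the alpha subunit of the trifunctional protein, which hydrates and dehydrogenates long-chain intermediates, measured 10.24, 10.15, 10.17, 10.19, 10.18 and 10.21 in 4.5 g/l against 10.03, 9.87, 10.04, 10.17, 9.97 and 9.99 in 0.3 g/l. The highest 0.3 g/l value was that of replicate 4, and the other 5 lay below all 4.5 g/l arrays. Hadha rose 1.13-fold (log2 difference 0.18 ± 0.06, SE; probe set 17446643; limma adjusted p = 0.0478). This call sat at the threshold: leaving out any array other than 0.3 g/l replicate 4 took it to between 0.0616 and 0.106, and leaving out that array to 0.00603. With the replicate number as a block the limma adjusted p was 0.0964.

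Hadhb, the beta subunit with the thiolase of the same complex, differed by 0.06 (95% interval -0.09 to 0.21). Its probe set read between 5.04 and 5.39 on the 12 arrays, closer than any other of the 33 to 4.20. That value is the upper bound of the dimmest 25% of genes, and Hadhb lay above it. Differences of dim probe sets are compressed, and whether this holds for Hadhb was not tested. Both genes start close together on opposite strands: in RefSeq (GRCm38.p6) their start sites lie 273 bases apart on chromosome 5, and their promoter windows share 228 bases. The window of Hadha is printed since it holds these shared bases, here in capitals, but it does not reach the start site of Hadhb. It runs from 250 bases before to 50 after the Hadha start, at chr5:30154931-30155230 on the minus strand.
Hadha: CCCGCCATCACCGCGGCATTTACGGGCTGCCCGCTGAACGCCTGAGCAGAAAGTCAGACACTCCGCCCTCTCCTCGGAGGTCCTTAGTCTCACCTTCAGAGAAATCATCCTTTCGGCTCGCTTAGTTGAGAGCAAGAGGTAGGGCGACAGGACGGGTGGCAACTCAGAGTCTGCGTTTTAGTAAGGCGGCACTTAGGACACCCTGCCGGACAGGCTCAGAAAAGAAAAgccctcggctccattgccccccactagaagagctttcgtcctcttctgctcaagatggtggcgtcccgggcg

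For shorter chains the hydroxyacyl-CoA dehydrogenase Hadh and the thiolase Acaa2 complete the round. Hadh differed by -0.06 (95% interval -0.16 to 0.05), and its 0.3 g/l arrays were close together, between 9.85 and 9.91. Acaa2 measured 7.65, 7.63, 7.58, 7.63, 7.65 and 7.70 in 4.5 g/l against 7.37, 7.37, 7.24, 7.48, 7.44 and 7.25 in 0.3 g/l. Here no array of either group crossed into the other, 0.3 g/l replicate 4 included. Acaa2 rose 1.22-fold (log2 difference 0.28 ± 0.06, SE; probe set 17351811; limma adjusted p = 0.00511) and by 0.31 without 0.3 g/l replicate 4 (limma adjusted p = 0.000911). It passed within replicates 1 to 3 alone (log2 difference 0.30, limma adjusted p = 0.0404).

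Auxiliary enzymes handle unsaturated fatty acids, whose double bonds must be moved or reduced before the round can proceed. Eci1, the mitochondrial isomerase that shifts such bonds, measured 7.48, 7.39, 7.51, 7.54, 7.47 and 7.61 in 4.5 g/l against 7.79, 7.76, 7.84, 7.70, 7.86 and 7.90 in 0.3 g/l. Every 4.5 g/l array was below every 0.3 g/l array. Eci1 fell by 0.31 ± 0.06 on the log2 scale (SE; 1.24-fold lower; probe set 17334253; limma adjusted p = 0.00287), and by 0.33 without 0.3 g/l replicate 4 (limma adjusted p = 0.000524). It also passed within replicates 1 to 3 (-0.34, limma adjusted p = 0.0218) and within replicates 4 to 6 without 0.3 g/l replicate 4 (-0.34, limma adjusted p = 0.0414). Decr1, the 2,4-dienoyl-CoA reductase that acts on other unsaturated intermediates, differed by -0.01 (95% interval -0.13 to 0.12). The promoter of Eci1 is printed as that of the called gene with the largest difference, 250 bases before to 50 after its RefSeq start at chr17:24426433-24426732 (GRCm38.p6, plus strand), with no capitals because none of the motifs searched below was found in it.
Eci1: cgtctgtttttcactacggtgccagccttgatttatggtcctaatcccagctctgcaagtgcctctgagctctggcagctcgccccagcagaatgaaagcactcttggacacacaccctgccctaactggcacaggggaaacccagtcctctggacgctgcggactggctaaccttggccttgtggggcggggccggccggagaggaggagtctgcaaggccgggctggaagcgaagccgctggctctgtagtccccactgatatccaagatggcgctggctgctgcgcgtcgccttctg

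**Figure D2:**
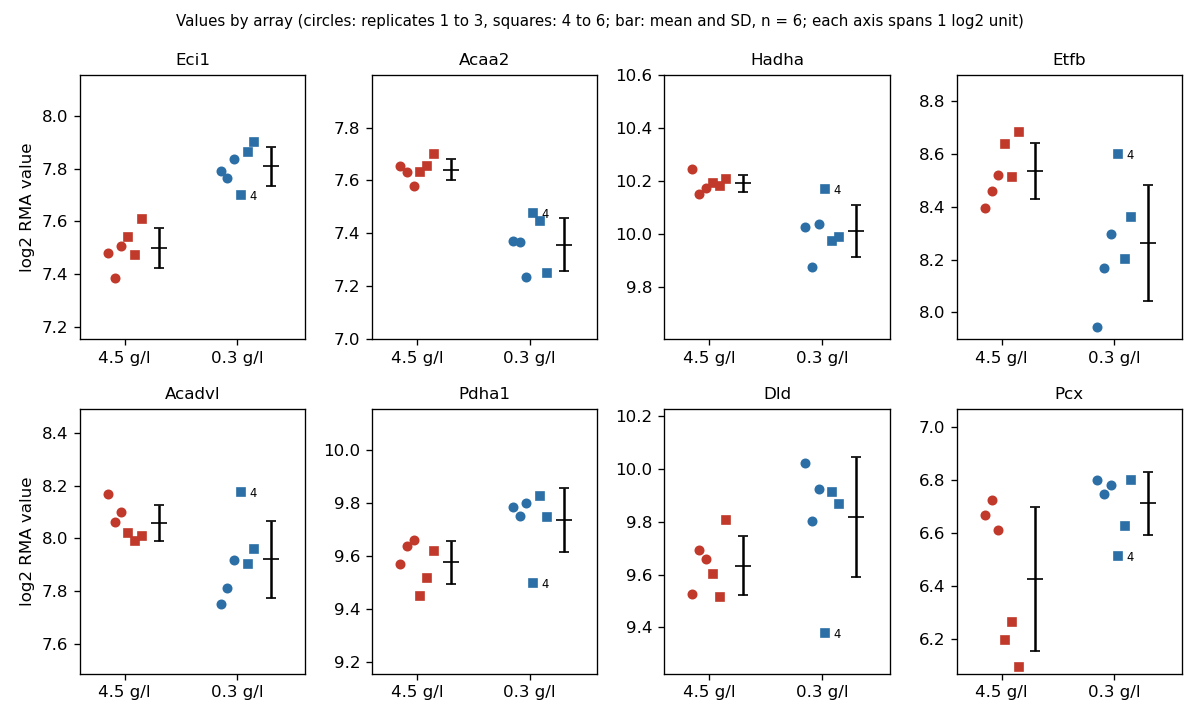
Log2 RMA values of 8 genes by array in 4.5 and 0.3 g/l glucose (circles, replicates 1 to 3; squares, replicates 4 to 6; "4" marks 0.3 g/l replicate 4; bars, mean and SD, n = 6). Eci1 and Acaa2 separate the groups on all 12 arrays, and in Etfb, Acadvl, Pdha1 and Dld 0.3 g/l replicate 4 lies apart from the other 0.3 g/l arrays.

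Genes of pyruvate entry were nominally lower in 4.5 g/l in 4 of 5, and none passed with 12 arrays. Mpc1, a subunit of the mitochondrial pyruvate carrier, was the exception in sign, at 0.11 (95% interval -0.02 to 0.24). Pdha1, the catalytic alpha subunit of pyruvate dehydrogenase, measured 9.57, 9.64, 9.66, 9.45, 9.52 and 9.62 in 4.5 g/l against 9.79, 9.75, 9.80, 9.50, 9.83 and 9.75 in 0.3 g/l. With replicate 4 set aside, each 0.3 g/l array was above each 4.5 g/l array. The difference was -0.16 ± 0.07 (SE, limma adjusted p = 0.137) with 12 arrays and -0.21 (limma adjusted p = 0.0118) without that array. The beta subunit Pdhb and the acetyltransferase Dlat differed by -0.12 and -0.08, and 0.3 g/l replicate 4 had the lowest value of all 12 arrays for both, 9.21 and 7.87.

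Pcx, pyruvate carboxylase, which refills the cycle with oxaloacetate, measured 6.67, 6.72, 6.61, 6.20, 6.26 and 6.09 in 4.5 g/l against 6.80, 6.75, 6.78, 6.51, 6.63 and 6.80 in 0.3 g/l. The 4.5 g/l arrays fell into 2 levels, with replicates 4 to 6 below all others, and 0.3 g/l replicate 4 was the lowest of its group. Its difference of -0.29 ± 0.11 (SE) did not pass (limma adjusted p = 0.107). Within replicates 1 to 3 it was -0.11 (limma adjusted p = 0.373), and within replicates 4 to 6 without 0.3 g/l replicate 4 it was -0.53 (limma adjusted p = 0.0175). The size thus depended on which 4.5 g/l arrays were compared.

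The 13 citrate cycle genes differed by -0.18 to 0.19, and none passed with 12 arrays. Cs, citrate synthase, which makes citrate from acetyl-CoA, differed by -0.02 (95% interval -0.17 to 0.12). Of the isocitrate dehydrogenases, the NADP-dependent Idh2 differed by -0.07 (95% interval -0.23 to 0.10). The NAD-dependent subunits Idh3a, Idh3b and Idh3g differed by -0.02, -0.05 and -0.08. The late enzymes fumarase, Fh1, and malate dehydrogenase, Mdh2, differed by 0.04 and -0.03, with 95% intervals of -0.07 to 0.15 and -0.14 to 0.08.

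The 2-oxoglutarate dehydrogenase complex showed unequal signs among its subunits. Ogdh, its decarboxylating subunit, measured 10.27, 10.29, 10.36, 10.01, 10.19 and 10.06 in 4.5 g/l against 10.08, 10.04, 10.06, 9.86, 10.01 and 9.99 in 0.3 g/l. The groups overlapped through 4.5 g/l replicates 4 and 6. The difference of 0.19 ± 0.07 (SE) did not pass (limma adjusted p = 0.0866), and without 0.3 g/l replicate 4 it was 0.16 (limma adjusted p = 0.111). Within replicates 1 to 3 it was 0.25 (limma adjusted p = 0.0535). Within replicates 4 to 6 without 0.3 g/l replicate 4 it was 0.09 (limma adjusted p = 0.567). It passed in 3 of 25 alternatives, among them without 4.5 g/l replicate 4 (log2 difference 0.23, limma adjusted p = 0.0490). Dlst, the succinyltransferase, differed by 0.08 (95% interval -0.03 to 0.19). Dld, the dihydrolipoamide dehydrogenase shared by this complex and pyruvate dehydrogenase, measured 9.53, 9.69, 9.66, 9.60, 9.52 and 9.81 in 4.5 g/l against 10.02, 9.80, 9.92, 9.38, 9.91 and 9.87 in 0.3 g/l. Its lowest value was that of 0.3 g/l replicate 4. The difference was -0.18 ± 0.10 (SE, limma adjusted p = 0.255) with 12 arrays and -0.27 (limma adjusted p = 0.00794) without that array.

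Succinyl-CoA ligase, which makes ATP or GTP directly in the cycle, has a common alpha subunit, Suclg1, and a choice of beta subunits, Sucla2 for ATP and Suclg2 for GTP. Suclg2 measured 9.13, 9.38, 9.34, 9.45, 9.28 and 9.41 in 4.5 g/l against 9.64, 9.46, 9.52, 9.09, 9.50 and 9.56 in 0.3 g/l. Again 0.3 g/l replicate 4 was the lowest array, and without it the groups did not overlap. The difference was -0.13 ± 0.09 (SE, limma adjusted p = 0.399) with 12 arrays and -0.21 (limma adjusted p = 0.0359) without that array. Sucla2 differed by 0.11 (95% interval -0.02 to 0.25). Suclg1 differed by 0.11 (95% interval -0.08 to 0.30), with the highest values, 8.29 and 8.11, in 4.5 g/l replicates 6 and 4. No test of Sucla2 against Suclg2 was made.

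Signs were unevenly spread over the roles. Of the 15 listed beta-oxidation genes 12 had a positive difference, with a median of 0.13. A second list, of 13 other genes of mitochondrial beta-oxidation and related steps, had 1 positive difference, 12 negative ones and a median of -0.11. It also holds genes outside the round of fatty acid shortening, among them the thioesterases Acot2 and Acot13 and the carboxylase Acacb. The positive signs are thus those of the listed genes and cannot be read as those of the whole pathway. Of 18 pyruvate entry and citrate cycle genes 6 had a positive difference, with a median of -0.04 (-0.12 for pyruvate entry and -0.02 for the citrate cycle). Over all genes 48.2% were positive, with a median of -0.01. Across the 25 alternatives tried, the beta-oxidation median lay between 0.09 and 0.16 and that of the other genes between -0.08 and -0.01. These are descriptions, since the genes were listed with results known, and most single differences did not pass.

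The same contrast was read per array as the mean deviation of each role from its genes' 12-array means. For beta-oxidation it was 0.036, 0.014, 0.044, 0.075, 0.021 and 0.094 in 4.5 g/l against -0.045, -0.103, -0.052, -0.004, -0.030 and -0.049 in 0.3 g/l. Every 4.5 g/l array was above every 0.3 g/l array for these 15 genes, which leave out the 13 genes of the second list, with mostly negative differences. For the citrate cycle the groups overlapped throughout, at -0.057 to 0.076 in 4.5 g/l and -0.064 to 0.049 in 0.3 g/l. For pyruvate entry it was 0.048, 0.042, -0.010, -0.144, -0.135 and -0.125 in 4.5 g/l against 0.146, 0.001, 0.129, -0.171, 0.136 and 0.084 in 0.3 g/l. The 4 lowest arrays for pyruvate entry were 4.5 g/l replicates 4 to 6 and 0.3 g/l replicate 4, which were also the 4 with the lowest endothelial marker means. The part of those cells in these values was not tested.

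**Figure D3:**
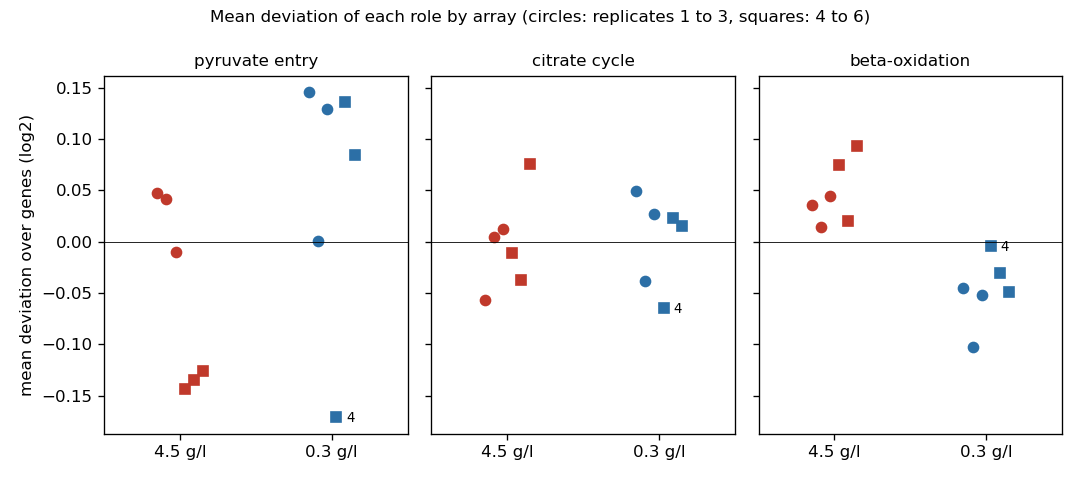
Mean deviation (log2, y axis) of pyruvate entry (5 genes), citrate cycle (13 genes) and beta-oxidation (15 genes) from each gene's 12-array mean, by array (circles, replicates 1 to 3; squares, replicates 4 to 6; "4" marks 0.3 g/l replicate 4). The groups separate for the 15 listed beta-oxidation genes, from 0.014 up in 4.5 g/l and from -0.004 down in 0.3 g/l, and overlap for the citrate cycle. The 13 other genes of beta-oxidation and related steps, with a median difference of -0.11, are not drawn.

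Arrays also differed inside the groups. In 0.3 g/l, replicate 4 was the highest or lowest array of its group for 22 of 33 genes (13 lowest, 9 highest), where it was so for 56.7% of all genes. In 4.5 g/l, replicates 1 to 3 did not overlap replicates 4 to 6 in 13 of 33 genes, where 27.8% of all genes did not. Replicates 4 to 6 were higher in 6 of these 13 (Idh2, Suclg1, Mdh2, Cpt2, Acadm and Etfa) and lower in 7 (Pdhb, Dlat, Pcx, Cs, Ogdh, Slc25a20 and Acadvl). The standard deviations within groups ran from 0.02 to 0.27 over the 33 genes.

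**Figure D4:**
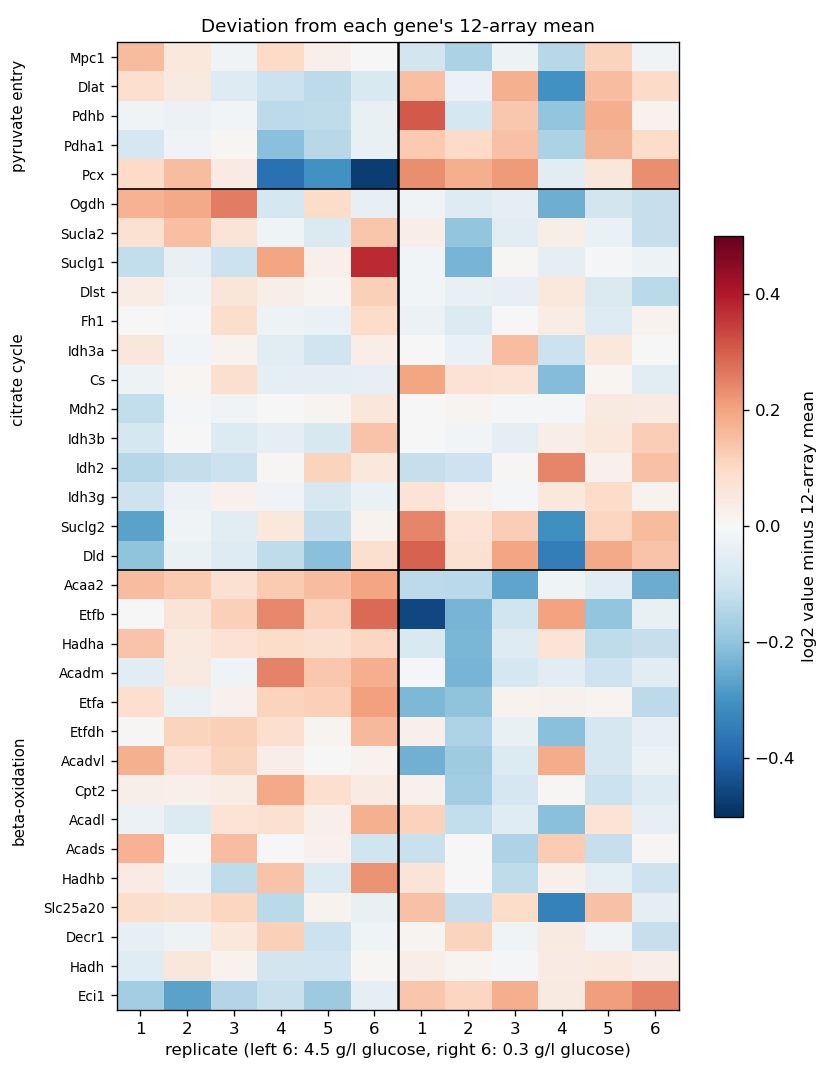
Log2 value of each gene minus its 12-array mean (colour) for the 33 genes by role (rows) and array (columns; the left 6 are 4.5 g/l and the right 6 are 0.3 g/l glucose, each as replicates 1 to 6). Replicate 4 of the 0.3 g/l group differs from its neighbours in Pdha1, Dld, Suclg2, Etfb and Acadvl, and 4.5 g/l replicates 4 to 6 are low in Pcx.

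Other genes of the same pathways were read from lists grouped by function and chosen with earlier results of these data known. Of 91 measured, 8 rose and 11 fell (20.9%, where 15.5% of all genes passed). Without 0.3 g/l replicate 4 the counts were 8 and 22 (33.0%, where 23.9% of all genes passed). In the control of pyruvate dehydrogenase 4 of 7 genes rose (57.1%, where 7.01% of all genes rose) and none fell. The kinases phosphorylate and switch off the complex, and the phosphatases reverse this. Pdk4, a kinase known to be induced by fasting and fatty acids, measured 9.42, 9.21, 9.26, 9.37, 9.36 and 9.58 in 4.5 g/l against 8.64, 8.69, 8.74, 8.98, 8.73 and 8.75 in 0.3 g/l. The groups did not overlap, although 0.3 g/l replicate 4 was the highest of its group. Pdk4 rose 1.53-fold (log2 difference 0.61 ± 0.08, SE; limma adjusted p = 0.000252).

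Pdk3 rose by 0.28 ± 0.07 (SE, limma adjusted p = 0.0115), with 0.3 g/l replicate 4, at 8.85, inside the 4.5 g/l range of 8.83 to 8.93. The phosphatase catalytic subunit Pdp1 also rose, by 0.22 ± 0.06 (SE, limma adjusted p = 0.0214), although it did not pass with the replicate number as a block (limma adjusted p = 0.0560). Pdk2 also rose, by 0.27 ± 0.08 (SE, limma adjusted p = 0.0379), but lost its call in 13 of 25 alternatives, with a limma adjusted p of 0.27 in replicates 1 to 3. Pdk1 differed by 0.12, the phosphatase Pdp2 by -0.05 and the regulatory subunit Pdpr by 0.09, and none of these passed; Pdk2 and these genes were named after their values were seen.

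**Figure D5:**
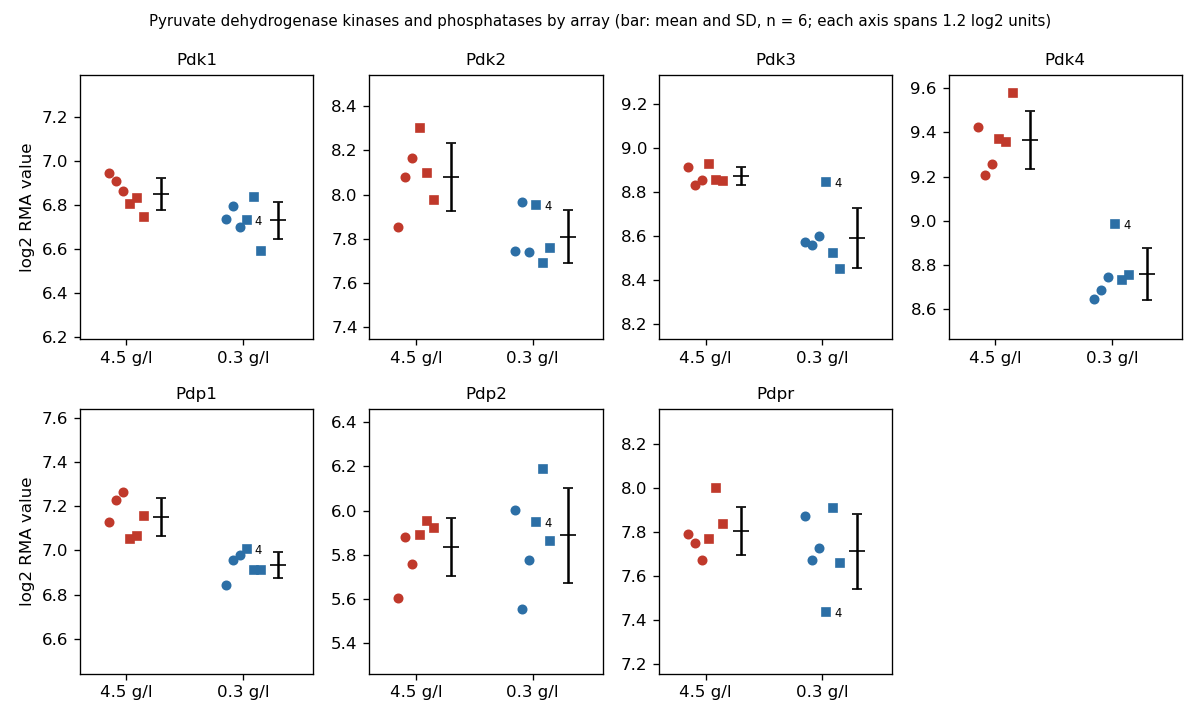
Log2 RMA values of the 4 pyruvate dehydrogenase kinases and of Pdp1, Pdp2 and Pdpr by array in 4.5 and 0.3 g/l glucose (circles, replicates 1 to 3; squares, replicates 4 to 6; bars, mean and SD, n = 6). Pdk4 and Pdp1 separate the groups, while Pdk1, Pdk2, Pdk3, Pdp2 and Pdpr overlap, Pdk3 only through 0.3 g/l replicate 4.

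Of the 13 other genes of mitochondrial beta-oxidation and related steps, 3 fell and none rose (23.1%, where 15.5% of all genes passed). Among their acyl-CoA dehydrogenases none passed with 12 arrays, and Acad9, named after its values were seen, differed by -0.19 (limma adjusted p = 0.152) and by -0.25 without 0.3 g/l replicate 4 (limma adjusted p = 0.0278). Acot2, a mitochondrial acyl-CoA thioesterase, measured 9.85, 10.17, 10.53, 10.33, 10.61 and 10.34 in 4.5 g/l against 12.65, 12.62, 12.45, 11.18, 12.49 and 12.45 in 0.3 g/l. It was 4.02-fold lower (log2 difference -2.01 ± 0.22, SE; limma adjusted p = 0.000111), and 0.3 g/l replicate 4 lay between the groups. Thioesterases of its family are closely related in sequence and can share probes, so its value is uncertain. Echs1, the short-chain enoyl-CoA hydratase of the beta-oxidation round, was 1.42-fold lower (limma adjusted p = 0.00327), and Acacb, the carboxylase whose product inhibits fatty acid entry, 1.3-fold lower (limma adjusted p = 0.0162). In fatty acid activation and uptake 1 of 13 passed (7.69%, where 15.5% of all genes did). It was the acyl-CoA synthetase Acsl4, which fell (1.49-fold lower, limma adjusted p = 0.0273). Its call was lost in 9 of 25 alternatives, among them leaving out any of 7 single arrays (limma adjusted p = 0.0547 to 0.0671). Cpt1a, the outer-membrane gate of fatty acid entry, differed by 0.18 ± 0.09 (SE, limma adjusted p = 0.178). Within replicates 1 to 3 it differed by 0.28 (limma adjusted p = 0.0461). Within replicates 4 to 6 without 0.3 g/l replicate 4 it differed by -0.02 (limma adjusted p = 0.927).

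Other enzymes exchange intermediates with the cycle. Among 13 such cytosolic and mitochondrial partners 2 fell and 1 rose (23.1%, where 15.5% of all genes passed). The aspartate aminotransferase Got1 was 2.66-fold lower and the mitochondrial phosphoenolpyruvate carboxykinase Pck2 1.76-fold lower (limma adjusted p = 0.00118 and 0.00144). The malic enzyme Me3 rose 1.26-fold (limma adjusted p = 0.00691), though not with its probe sets averaged (limma adjusted p = 0.256). Without 0.3 g/l replicate 4, 6 of the 13 fell, where 13.6% of all genes did. In glutamine and amino acid entry 2 of 10 passed (20%, where 15.5% of all genes did). Both fell, the glutamine transporter Slc1a5 (2.47-fold lower, limma adjusted p = 0.00202) and the branched-chain dehydrogenase subunit Bckdhb (1.98-fold lower, limma adjusted p = 0.00697). For Got1, Slc1a5 and Bckdhb, 0.3 g/l replicate 4 lay at 9.94, 8.21 and 6.17, at or near the 4.5 g/l level. None of the 5 other measured enzymes of the cycle and of pyruvate dehydrogenase (4 succinate dehydrogenase subunits and Pdhx) passed in limma, where 1 had an unadjusted p under 0.05.

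Peroxisomal beta-oxidation, which shortens very long and branched chains, had 2 of 12 genes higher and 1 lower (25%, where 15.5% of all genes passed). The branched-chain oxidase Acox2 was 1.94-fold lower (limma adjusted p = 0.00027), and the sterol carrier protein Scp2 and the isomerase Ech1 rose 1.19-fold each (limma adjusted p = 0.0233 and 0.0283). With the replicate number as a block neither passed (limma adjusted p = 0.0745 for Scp2 and 0.0688 for Ech1), and they lost the call in 7 and 12 of 25 alternatives. Of 3 ketone body enzymes Bdh1, the hydroxybutyrate dehydrogenase, rose 1.23-fold (limma adjusted p = 0.0296) at a mean of 5.13 in 4.5 g/l and 4.83 in 0.3 g/l, and lost its call in 8 of 25 alternatives. Of 15 regulators 2 passed (13.3%, where 15.5% of all genes did), and both fell. Pparg, a lipid-sensing nuclear receptor, was 1.4-fold lower (limma adjusted p = 0.0012), and Pprc1, a coactivator related to PGC-1, 1.25-fold lower (limma adjusted p = 0.00131). Esrra, the receptor known to drive many of these mitochondrial genes, differed by -0.00 (95% interval -0.17 to 0.16), and Ppargc1a, its coactivator, read below 4.20, the bound of the dimmest 25%, in both means.

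The promoters of 30 of the 33 genes (37 windows of 300 bases) were searched on both strands for 4 short motifs, as a description only. AAGGTCA, the element bound by oestrogen-related receptors, was found in 2 windows (5.41%), where 4.72% of all 32851 windows held it. GCATGCG, the core of the NRF1 element, was in 6 (16.2%), against 3.58% of all windows, and its letters can match both strands at nearly the same place. CACGTG, an E-box that reads alike on both strands, was in 4 (10.8%), all of them windows of Ogdh or Pcx, against 7.15%. TGATGCA, an element of CEBP and ATF factors, was in none, against 3.15%, which says only that these letters are not in these windows. The 37 windows are not independent, since 3 of those with matches belong to Ogdh. All 3 held the E-box, and 2 of them overlap and hold the same E-box and the same NRF1 core. The shares of these motifs thus count Ogdh more than once. The matches fell in 6 genes: Acadm, Etfa, Etfdh, Ogdh, Pcx and Pdhb, none of which passed with 12 arrays. The window of Acadm is printed as the beta-oxidation promoter that held both of the first-named motifs, at chr3:153944594-153944893 (GRCm38.p6, minus strand, 250 bases before to 50 after its RefSeq start), with the oestrogen-related receptor element, read here on the other strand, and the NRF1 core in capitals.
Acadm: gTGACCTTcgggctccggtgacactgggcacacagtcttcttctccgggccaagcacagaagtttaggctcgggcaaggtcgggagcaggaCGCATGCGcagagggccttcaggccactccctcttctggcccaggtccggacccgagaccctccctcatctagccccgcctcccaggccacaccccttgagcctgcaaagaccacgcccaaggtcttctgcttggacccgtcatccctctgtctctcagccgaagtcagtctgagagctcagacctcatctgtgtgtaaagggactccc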

How the data were processed

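Total RNA was labelled with biotin and hybridised to an Affymetrix array, per the labels' protocols. The authors deposited 1 table of log2 values, made with RMA in Affymetrix Expression Console per the submitters' processing notes; versions, scan dates and detection calls are not given in the sources used here. Since RMA equalises the distributions of arrays, global shifts in RNA content are not visible. Of 41345 probe sets, 23521 had 1 gene symbol, and each of 22180 genes took the probe set with the highest mean. The test was limma 3.58.1 under R 4.3.3 (lmFit, eBayes, two-sided, no block, Benjamini-Hochberg over all genes, threshold 0.05, no filter on dim genes), tested on simulated data. The members and lists were chosen with earlier results of these data known. All members were named, and of other pathway lists the 3 called genes with the smallest p, plus Pdk4, Cpt1a, Ppargc1a and Esrra; Acad9, Pdk1, Pdk2, Pdp2, Pdpr and Pdhx were added after values were seen. Of 99 entries of those lists 91 were matched. Same-numbered arrays of the groups deviated together in 2 of 6 pairs (correlation over 0.1), so numbers were not taken as pairs. Alternatives covered moderation, dim genes, scaling, probe sets, array weights, blocks, an exact permutation test, replicate ranges and each array left out. Promoters are from RefSeq (GRCm38.p6). Figures used matplotlib 3.10.9. The number of arrays limits the precision.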

Additional observations from a re-analysis of the deposited data

Results flagged for a closer look

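In 120 groups of 6 arrays, 19 had an array whose gap to the nearest of the others was large for the range of the group (Dixon's test at the 95% level), where chance gives about 1 in 20. Replicate 4 of the 0.3 g/l group accounted for 15 of the 19. Among the 33 genes examined, 5 of 66 groups stood out, 3 of them through that array.

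Pdha1 read 9.50 in 0.3 g/l replicate 4, where the other 0.3 g/l arrays read 9.75 to 9.83. Dld read 9.38 there, against 9.80 to 10.02, and Suclg2 9.09, against 9.46 to 9.64. Suclg1 read 7.69 in 0.3 g/l replicate 2, below the other values of 7.87 to 7.92. Cpt2 read 8.62 in 4.5 g/l replicate 4, above the other values of 8.46 to 8.51. The per-array mean of beta-oxidation genes minus that of pyruvate entry and citrate cycle genes was 0.0902 in 0.3 g/l replicate 4 and below 0 in the other 0.3 g/l arrays.

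Of the other pathway genes, 0.3 g/l replicate 4 was low in its group for Acot2 (11.18), Acsl4 (7.81), Bckdhb (6.17), Cpt1a (8.64), Echs1 (8.34), Got1 (9.94), Pck2 (9.36), Pprc1 (7.69) and Slc1a5 (8.21). It was high for Ech1 (9.12) and Pdk4 (8.98). Esrra was low in 0.3 g/l replicate 5 (6.87), and Scp2 was high in 4.5 g/l replicate 2 (8.50).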

How the results depend on the processing

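Over 25 alternatives, 756 of 825 values of the 33 genes kept their direction and their side of the threshold, 19 lost the call, 26 gained it, 24 changed sign without a call and 0 reversed a call. Eci1 lost its call in replicates 4 to 6 alone (limma adjusted p = 0.236), and Acaa2 there and without 0.3 g/l replicate 4 in that range (limma adjusted p = 0.251 and 0.0718). The count of beta-oxidation genes higher in 4.5 g/l, 2 with all arrays, was 5 with trend and robust moderation, 4 without the dimmest 25% of genes, with cyclic loess and with array weights, 1 with median centring and in replicates 1 to 3, and 0 in replicates 4 to 6 with or without 0.3 g/l replicate 4. It was 1 to 4 when 1 array was left out, with 4 only without 0.3 g/l replicate 4 and 1 without any other. The count lower, 1, was 0 in replicates 4 to 6 alone. For pyruvate entry and citrate cycle genes the count higher, 0, was 1 with trend and robust moderation and with the number range as a block, and 0 to 1 with 1 array left out. The count lower, 0, was 3 with array weights, 1 in replicates 4 to 6 without 0.3 g/l replicate 4 and with the number range as a block, and 0 to 3 with 1 array left out, the 3 being without 0.3 g/l replicate 4.

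With the replicate number as a block, 2 beta-oxidation genes were higher and 1 lower, and 3130 of all genes passed, against 3444; Hadha lost its call and Etfb gained one (limma adjusted p = 0.0333). Correlations of same-numbered deviations were -0.0458 to 0.173, and 2 of 6 4.5 g/l arrays correlated best with their own number. Over all genes 5295 passed without 0.3 g/l replicate 4, 5419 with array weights, 1993 by the exact permutation test and 30 in replicates 4 to 6 alone, where 3699 had an unadjusted p under 0.05. Ppargc1a, at 0.00 with all arrays, was -0.42 in replicates 4 to 6 without 0.3 g/l replicate 4 (limma adjusted p = 0.0455) and 0.35 in replicates 1 to 3 (limma adjusted p = 0.0513). The causes of these changes were not tested. Hadhb lay above the bound of the dimmest 25% of genes but closest to it of the 33, and whether its difference was compressed was not tested.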
